A study of Mus musculus with 183 samples.

Results

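The genes described here are 9 amino acid transporter genes of the mouse, Slc7a11, Slc7a5, Slc3a2, Slc7a3, Slc7a1, Slc38a2, Slc1a4, Slc1a5 and Slc6a9, which were picked by name out of the 53380 genes of a count table. The list was drawn up with earlier results of these data known. All 9 had a row in that table, and 7 of them were among the 7240 mRNAs with deposited values of binding to RNA decay factors. The binding values came from other cell lines than the counts, in which the bound protein carried a tag. The study compared RNA decay pathways in mouse embryonic stem cells (mESCs). RNA was sequenced from 47 libraries of a half-life experiment, 3 for each combination of clone, day of 4-hydroxytamoxifen (4OHT) and time of actinomycin D. For clone 5F at day 0, the 120 min point had 2 libraries, and a further one was not analysed here.

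Both clones carried Rosa26 Cre-ERT2, a recombinase that 4OHT switches on, and both grew in serum and LIF. Clone 5F is labelled Rosa26 Cre-ERT2/- with Skiv2l fl/fl, so that 4OHT should remove the catalytic part of SKIV2L, the helicase that feeds RNA into the cytoplasmic exosome for decay from the 3′ end. Clone 7E is labelled Aven-/- with Rosa26 Cre-ERT2/BirA-V6 and a 3xFLAG-Avi tag on both Skiv2l alleles, whereas the paper spells the Rosa26 allele with BirA-V5 and describes the line as Aven-/- Skiv2l fl/fl. AVEN is a ribosome-associated partner of the Ski complex. Each clone was taken without 4OHT (day 0) or after 4 days in 0.1 µM 4OHT (day 4). Cells then received fresh medium with actinomycin D, which blocks transcription, for 120, 240 or 360 min, or fresh medium with DMSO for 6 h (mock), which stands for time 0. Each genotype is 1 clone. Since the replicate libraries are described as technical, p-values measure only the spread between these libraries. For the dose of actinomycin D the labels and the methods give different units.

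Amino acid transporters of the plasma membrane bring amino acids into the cell, mostly by exchange for another amino acid or together with sodium. Slc7a11 (xCT) takes up cystine for glutamate, and Slc7a5 (LAT1) takes up leucine and other large neutral amino acids. Each of these proteins is held at the membrane by the heavy chain Slc3a2 (CD98). When amino acids run short or translation is disturbed, the integrated stress response raises translation of the transcription factor ATF4, and several genes of this family are textbook ATF4 targets. Slc7a11 is also a textbook target of NRF2, the factor of the oxidative stress response.

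Before the transporters were compared, the labels were checked with the targeted genes. In mock libraries Skiv2l stood at 147, 147 and 148 CPM (a gene's share of the library's reads, scaled to a fixed total) in clone 5F at day 0, and at 153, 132 and 144 CPM in the libraries of clone 5F labelled day 4. These groups overlap and the log2 fold change was -0.01 ± 0.05 (SE), so no loss of Skiv2l was seen in clone 5F, where the floxed exons are only a part of the counted gene. In clone 7E, Skiv2l stood at 31.2 to 36.1 CPM at day 0 and at 12.3 to 13.8 CPM at day 4, a log2 fold change of -1.32 ± 0.07. Aven stood at 32.1 to 36.1 CPM in the mock libraries of clone 5F and at 1.30 to 2.99 CPM in those of clone 7E. Total counts ranged from 24540658 to 34208466 per library. All 10 pluripotency markers were over 10 CPM in every mock library, and their summed level ranged from 3140 to 3872 CPM. The 12 differentiation markers summed to 59.8 to 138 CPM, highest in clone 5F at day 0 and lowest in clone 7E at day 4. From day 0 to day 4, 9 of the 10 pluripotency markers were lower in clone 7E and 0 higher (median log2 fold change -0.21), and in clone 5F 3 were higher and 3 lower. Of 11 differentiation markers tested, 1 was higher and 3 were lower in clone 7E, among them the neural marker Sox1 (log2 fold change -2.05), and 0 were higher and 4 lower in clone 5F. The part of these markers in the results below was not tested. The ERCC spike-ins, which were added to the lysis buffer of each well, took 0.640% to 0.659% of the counts in the mock libraries of clone 7E at day 4 and 0.275% to 0.320% in the other 9 mock libraries. Fewer cells in a well and less RNA per cell cannot be told apart from these counts. The levels below are therefore relative to the other RNAs of the same library, and values on the spike-in scale, with each library scaled by its own ERCC counts, are given where they differ in direction.

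The most abundant of these transporter mRNAs per length were Slc3a2 and Slc38a2. In mock libraries of clone 5F at day 0 the level per kb of transcript, as a normalized count (a count divided by a size factor of its library), was 3288 ± 112 (SD, n = 3) for Slc3a2 and 3040 ± 60.4 for Slc38a2 (SNAT2, a sodium-coupled carrier of small neutral amino acids). Next came the cationic amino acid carrier Slc7a3 (CAT3) at 1970.16 ± 43.2 per kb and Slc7a5 at 1323 ± 68.9 per kb. Slc7a1 (CAT1), the other cationic carrier, stood at 264 ± 18.9 per kb, the glutamine carrier Slc1a5 (ASCT2) at 242 ± 5.32 per kb and its relative Slc1a4 (ASCT1) at 73.9 ± 4.80 per kb. The libraries of neighbours in this order did not overlap. In clone 7E at day 0 the order was the same except that Slc7a5 stood above Slc7a3, and the libraries of Slc7a1 and Slc1a5 overlapped. For Slc7a11 and for the glycine transporter Slc6a9 (GlyT1) no transcript length was used here, and their counts were the lowest of the set.

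The first question was whether levels of the transporters differ after 4 days of 4OHT. In clone 5F, 7 of the 9 genes were higher and 1 was lower in the mock libraries labelled day 4 than at day 0, at an adjusted p under 0.05 in edgeR's quasi-likelihood test over all genes. Among all 16349 genes tested, 12.8% passed as higher and 11.6% as lower, 24.5% together. Because the members were chosen with earlier results of these data known, such shares describe the set and do not test it. In clone 7E, 8 of the 9 genes were higher and 1 was lower, against 20.7% higher and 19.4% lower among 16333 genes, 40.1% together. The 3 libraries of day 4 did not overlap with those of day 0 for 8 members in clone 5F and for all 9 in clone 7E, as was so for 37.8% and 48.8% of the genes tested. The median log2 fold change of the members was 0.32 in clone 5F and 0.68 in clone 7E, and that of all genes tested was -0.00 and -0.01. On the spike-in scale the median of all genes moved to -0.07 in clone 5F and to -1.11 in clone 7E.

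**Figure D1:**
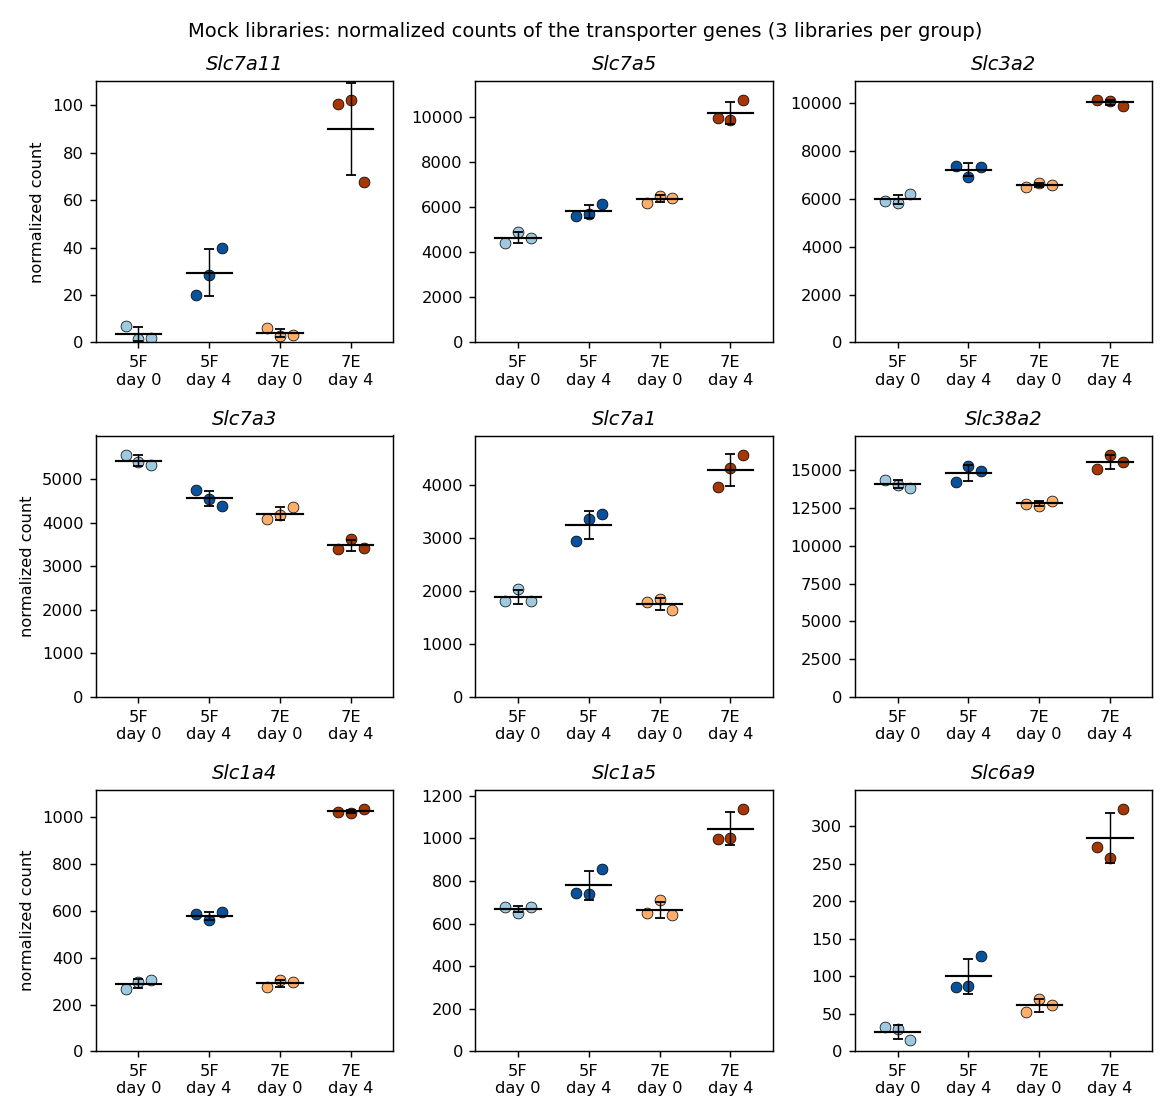
Normalized counts (y axis, linear, from 0) of the 9 transporter genes in each of the 12 mock libraries, by clone and day of 4OHT. Points are libraries, the horizontal line is the mean of 3 and the bar 1 SD. Relative to the other RNAs, 8 of the genes sit higher and Slc7a3 sits lower at day 4 in clone 7E. On the spike-in scale the log2 fold changes of Slc7a5, Slc3a2, Slc38a2 and Slc1a5 in clone 7E turn negative.

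Slc7a11, the cystine carrier (chromosome 3, 49892526 to 50443614, minus strand, GRCm38), showed the largest fold changes of the set. It was near the floor at day 0, with 7, 2 and 2 raw counts in the mock libraries of clone 5F and 6, 3 and 3 in those of clone 7E. In the libraries labelled day 4 it reached 20, 27 and 39 counts in clone 5F, and at day 4 it reached 99, 98 and 71 counts in clone 7E. No library of day 4 overlapped with one of day 0. The log2 fold change was 3.05 ± 0.45 (SE, adjusted p = 4.3e-05) in clone 5F and 4.45 ± 0.32 (adjusted p = 6.2e-11) in clone 7E. The size in clone 5F rests on few reads and ranged from 2.53 to 4.15 when each replicate number was left out in turn. Other annotated genes overlap Slc7a11 on both strands, and with a library kit that does not mark strand their shared reads cannot be told apart. Whether such reads entered the count of Slc7a11 was not examined.

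Its heavy chain Slc3a2 (chromosome 19, 8706882 to 8723369, minus strand) had 5898, 5833 and 6214 normalized counts in the mock libraries of clone 5F at day 0, and 7398, 6933 and 7354 in those labelled day 4. In clone 7E the values were 6480.11, 6670.24 and 6599 at day 0 and 10122, 10086 and 9901 at day 4. The groups did not overlap in either clone. The log2 fold change was 0.27 ± 0.05 (adjusted p = 0.00015) in clone 5F and 0.61 ± 0.04 (adjusted p = 6.9e-11) in clone 7E, where it was -0.49 on the spike-in scale.

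Slc7a5, the leucine carrier that shares this heavy chain (chromosome 8, 121881150 to 121907694, minus strand), also had its lowest levels in clone 5F at day 0 and its highest in clone 7E at day 4. It had 4425, 4907 and 4624 normalized counts in clone 5F at day 0 and 5597, 5695 and 6145 in the libraries labelled day 4. Clone 7E had 6210.10, 6518 and 6395 at day 0 and 9949, 9885 and 10743 at day 4. The log2 fold changes were 0.32 ± 0.05 (adjusted p = 7.1e-05) and 0.68 ± 0.05 (adjusted p = 3.5e-11), the latter -0.42 on the spike-in scale.

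The cationic carriers, which bring in arginine and lysine, differed from each other. Slc7a1 (chromosome 5, 148327410 to 148399904, minus strand) had 1806, 2049 and 1821 normalized counts in clone 5F at day 0 and 2956, 3357 and 3449.5 in the libraries labelled day 4, without overlap. In clone 7E it had 1785, 1855 and 1637 at day 0 and 3976, 4319 and 4575 at day 4. Its log2 fold change was 0.78 ± 0.06 (adjusted p = 6.7e-09) in clone 5F and 1.29 ± 0.06 (adjusted p = 1.8e-14) in clone 7E. Slc7a3 (chromosome X, 101079210 to 101086020, minus strand) was the 1 gene of the set that was lower. It had 5551, 5381 and 5322 normalized counts in clone 5F at day 0 and 4737, 4541 and 4382 in the libraries labelled day 4. In clone 7E it had 4079.85, 4164 and 4359.97 at day 0 and 3385, 3615 and 3419 at day 4. The log2 fold changes were -0.25 ± 0.05 (adjusted p = 0.00036) and -0.27 ± 0.05 (adjusted p = 8.6e-05).

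Slc38a2 (chromosome 15, 96687392 to 96699730, minus strand) had the smallest log2 fold change of the set in clone 5F. It had 14366, 14014 and 13814 normalized counts in clone 5F at day 0 and 14198, 15261 and 14935 in the libraries labelled day 4, and these groups overlap. The log2 fold change of 0.07 ± 0.04 was not past the threshold (adjusted p = 0.24). In clone 7E it had 12765, 12634 and 12988 at day 0 and 15062, 16009 and 15538 at day 4, without overlap. That log2 fold change was 0.28 ± 0.04 (adjusted p = 1.8e-05), and -0.82 on the spike-in scale.

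Both ASCT carriers were higher, Slc1a4 by more than Slc1a5. Slc1a4 (chromosome 11, 20302180 to 20332713, minus strand), which carries alanine, serine and cysteine, had 269, 297 and 304 normalized counts in clone 5F at day 0 and 586, 561 and 594 in the libraries labelled day 4. In clone 7E it had 275, 303 and 296 at day 0 and 1021, 1019 and 1034 at day 4. Its day 0 levels were nearly the same in both clones, and its log2 fold changes were 1.00 ± 0.08 (adjusted p = 6.3e-09) and 1.81 ± 0.07 (adjusted p = 1.6e-15). Slc1a5 (chromosome 7, 16781340 to 16798274, plus strand) had 678, 652 and 677 normalized counts in clone 5F at day 0 and 744, 739 and 858 in the libraries labelled day 4. In clone 7E it had 649, 709 and 641 at day 0 and 998, 1004 and 1137 at day 4. The log2 fold change in clone 5F was 0.22 ± 0.07 (adjusted p = 0.021), and it was not past the threshold on the spike-in scale (0.16, adjusted p = 0.21), without replicate 1 (adjusted p = 0.069) or without replicate 3 (adjusted p = 0.24). In clone 7E it was 0.65 ± 0.07 (adjusted p = 6.5e-08), and -0.45 on the spike-in scale.

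Slc6a9 (chromosome 4, 117834506 to 117875198, plus strand), the glycine carrier, was higher by several fold from a low level. It had 32, 36 and 15 raw counts in the mock libraries of clone 5F at day 0 and 86, 83 and 124 in those labelled day 4. Clone 7E had 53, 71 and 61 counts at day 0 and 268, 248 and 338 at day 4. The log2 fold change was 1.94 ± 0.23 (adjusted p = 2.2e-06) in clone 5F and 2.21 ± 0.13 (adjusted p = 3.6e-12) in clone 7E. Slc6a9 overlaps Ccdc24 and B4galt2 on the opposite strand, so reads in the shared stretches cannot be told apart. Whether such reads entered the count of Slc6a9 was not examined.

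The promoters of 6 of the 9 genes were in the RefSeq table (GRCm38.p6), 9 windows in all, each from 250 bases before the annotated start to shortly after it. They were searched on both strands for TGATGNAA, the core of the C/EBP-ATF response element, and TGACNNNGC, the core of the antioxidant response element. TGATGNAA was in 2 of the 9 windows and in 3.97% of 32851 windows of all genes, and TGACNNNGC was in 4 of the 9 and in 12.4% of all. The windows with TGATGNAA were those of Slc7a11 and Slc1a4, and they are shown here, with the matches in capitals, as the windows that hold this motif. Slc7a1 and Slc6a9, whose windows lack it, were also higher at day 4 in both clones, and so was Slc3a2 relative to the other RNAs. The 2 matches of Slc7a11 (chr3:50443564-50443863, minus strand) start at positions -66 and -47 from the start and lie on opposite strands, and the match of Slc1a4 (chr11:20332664-20332963, minus strand) starts at position -4.
Slc7a11: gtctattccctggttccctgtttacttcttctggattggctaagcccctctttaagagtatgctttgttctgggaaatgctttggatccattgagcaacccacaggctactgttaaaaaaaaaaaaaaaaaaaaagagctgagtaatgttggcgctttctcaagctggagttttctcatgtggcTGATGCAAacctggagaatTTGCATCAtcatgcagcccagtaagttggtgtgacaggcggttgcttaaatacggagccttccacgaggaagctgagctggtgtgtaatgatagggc
Slc1a4: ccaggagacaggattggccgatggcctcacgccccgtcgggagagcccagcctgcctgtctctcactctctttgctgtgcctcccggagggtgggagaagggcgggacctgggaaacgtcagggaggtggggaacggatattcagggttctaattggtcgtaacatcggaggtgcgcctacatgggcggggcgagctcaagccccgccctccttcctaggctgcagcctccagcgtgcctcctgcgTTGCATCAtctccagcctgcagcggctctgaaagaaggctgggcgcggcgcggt
TGACNNNGC was in windows of Slc7a1, Slc38a2 and Slc6a9, and no match of one motif overlapped the other. A match is a run of letters and not a measured site.

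The next question was whether the clones differ before 4OHT. Skiv2l itself was already lower in clone 7E at day 0, with a log2 difference of -2.10 ± 0.05. At day 0, 3 of the 8 members tested were higher in clone 7E than in clone 5F and 2 were lower, while 20.0% of 16299 genes were higher and 19.7% lower, 39.7% together. The libraries of both clones did not overlap for 5 members, as for 48.6% of genes. Slc6a9 was 1.24 ± 0.23 log2 higher (adjusted p = 0.00014) and Slc7a5 0.45 ± 0.04 higher (adjusted p = 8.3e-09). Slc3a2 was higher by 0.14 ± 0.04 (adjusted p = 0.0076), a value that became -0.02 on the spike-in scale (adjusted p = 0.77). Slc7a3 was lower, at -0.37 ± 0.04 (adjusted p = 1.2e-07), and so was Slc38a2, at -0.14 ± 0.04 (adjusted p = 0.0056). Slc7a1, Slc1a4 and Slc1a5 had log2 differences of -0.11, 0.01 and -0.00 that did not pass, and Slc7a11 did not pass the filter on low counts. Without replicate 1 the count fell from 5 to 3, since Slc3a2 and Slc38a2 no longer passed. Markers of other cell types differed between the clones as well. Of 11 differentiation markers tested, 3 were higher in clone 7E and 5 lower, and the list summed to 83.4 to 85.8 CPM there and to 132 to 138 CPM in clone 5F. The endoderm markers Gata4, Gata6, Sox17 and Dab2 had log2 differences of -3.46, -3.43, -3.30 and -3.02, and Sox1 had 2.19. Of 10 pluripotency markers, 5 were higher in clone 7E and 3 lower. Among 20 ATF4 genes 12 were higher and 1 lower, with a median of 0.27, and among 10 NRF2 target genes 8 were higher and 1 lower, with a median of 0.33. The part of these differences in the values of the transporters was not tested.

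The response to 4OHT was then compared between the clones, as the change in clone 7E minus that in clone 5F. Of the 9 members, 6 had the larger response in clone 7E and 0 in clone 5F, against 6.65% and 5.29% of 17209 genes, 11.9% together. The difference was 0.81 ± 0.10 log2 for Slc1a4 (adjusted p = 3.0e-06), 0.51 ± 0.09 for Slc7a1 (adjusted p = 0.00055) and 0.43 ± 0.10 for Slc1a5 (adjusted p = 0.0052). It was 0.36 ± 0.07 for Slc7a5 (adjusted p = 0.00088), 0.33 ± 0.06 for Slc3a2 (adjusted p = 0.00028) and 0.21 ± 0.06 for Slc38a2 (adjusted p = 0.017). The difference for Slc7a11, 1.41 ± 0.77, did not pass (adjusted p = 0.28), nor did 0.27 ± 0.29 for Slc6a9 or -0.02 ± 0.06 for Slc7a3. All 6 values were negative on the spike-in scale, where the median of all genes was -1.03, from -0.21 for Slc1a4, which did not pass there (adjusted p = 0.090), to -0.83 for Slc38a2. Without replicate 1, 4 of the 6 passed. In the same comparison 0 of 10 pluripotency markers passed in the direction of clone 7E and 4 in the other, and of 11 differentiation markers 1 passed in each direction, with -2.19 for Sox1.

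Other carriers of amino acids gave a background for the set. Of 44 further amino acid transporter genes, 28 passed the filter in clone 5F, of which 7 were higher and 1 lower in the libraries labelled day 4, with a median of 0.20 on the log2 scale. In clone 7E, 13 of 27 were higher and 5 lower at day 4, with a median of 0.31. Among those past the threshold, the 3 with the largest change in clone 5F were Slc1a6 (0.90 ± 0.31), Slc6a14 (0.58 ± 0.14) and Slc43a2 (0.35 ± 0.08), and in clone 7E Slc7a8 (1.31 ± 0.25), Slc6a7 (1.31 ± 0.34) and Slc7a14 (1.12 ± 0.27). Slc6a14, which takes up both neutral and cationic amino acids, was 2.27 ± 0.11 log2 higher in clone 7E than in clone 5F at day 0. Slc38a4 and Slc7a8, a relative of SNAT2 and a further light chain of Slc3a2, were 0.87 log2 lower there, at -0.87 ± 0.04 and -0.87 ± 0.25.

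ATF4 and its canonical target genes moved in the same comparisons. In clone 5F, 12 of 20 were higher and 2 lower in the libraries labelled day 4 (median 0.37 on the log2 scale), and in clone 7E 17 were higher and 2 lower at day 4 (median 0.98). The Atf4 mRNA itself was higher by 0.82 in clone 5F and 1.35 in clone 7E, Chac1, an enzyme that breaks down glutathione, by 1.75 and 2.82, and Ddit3 (CHOP), a stress-response transcription factor, by 1.43 and 2.20. The enzymes of proline and serine synthesis Pycr1 and Psph were lower in both clones, with values of -0.48 and -0.71 for Pycr1. Of the difference between the clones, 16 of the 20 were past the threshold in the direction of clone 7E and 0 in the other. Among 10 NRF2 target genes tested, 2 were higher in clone 5F and 3 in clone 7E with medians of 0.03 and 0.01. Those past the threshold in clone 7E were Me1 (0.51), Hmox1 (0.42) and Txnrd1 (0.21), while Nqo1, a textbook NRF2 target, had -0.00. The response of Hmox1, which breaks down heme, was 0.26 larger in clone 7E (adjusted p = 0.014). The shift of all genes in clone 7E on the spike-in scale, -1.11, is larger in size than the median of the ATF4 list.

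**Figure D2:**
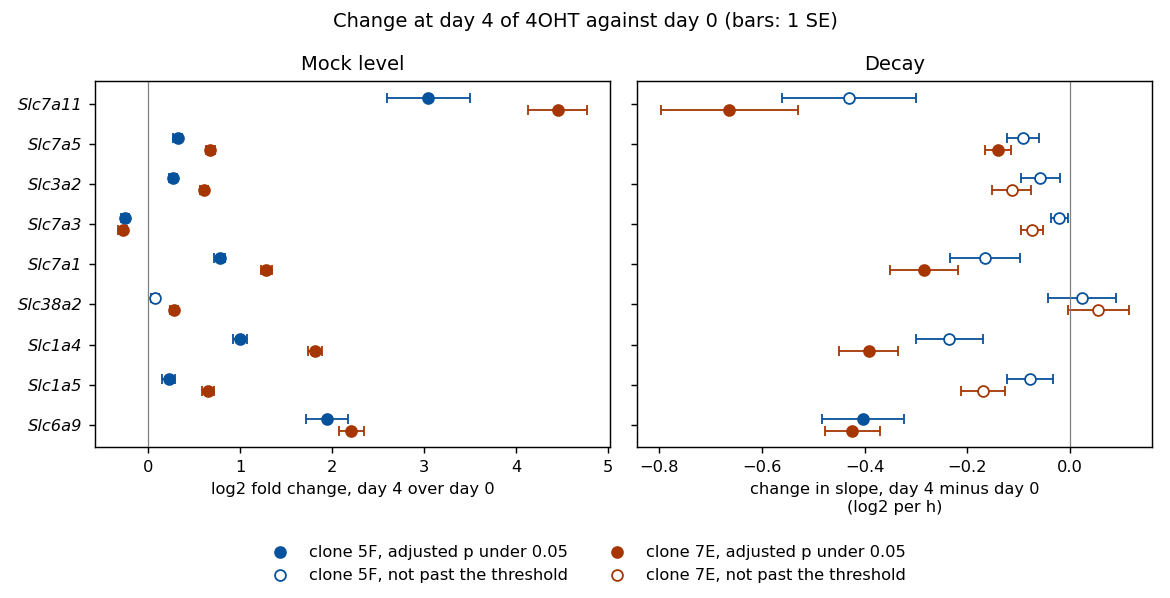
Left, log2 fold change of the mock level at day 4 over day 0 (x axis) for each transporter gene (y axis) in clone 5F (blue) and clone 7E (brown). Right, the change in slope after actinomycin D, in log2 per h, where values below 0 mean a lower slope at day 4. For Slc7a11, Slc1a4 and Slc6a9 the fitted slopes at day 0 were above 0 in both clones. Bars are 1 SE and filled points have an adjusted p under 0.05. Levels are relative to the other RNAs, and for Slc7a5, Slc3a2, Slc38a2 and Slc1a5 in clone 7E the left values turn negative on the spike-in scale.

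After actinomycin D the courses of the members differed widely. For each clone and day the slope of the natural log of the normalized count plus 1 on time was fitted, with counts scaled so that the spike-ins carry the overall loss of RNA from one time point to the next. The median slope of 9874 genes with a mean normalized count of at least 100 was -0.21 log2 per h in each of the 4 series. The series share 1 spike-in factor per time point, so the scaling holds their median genes to the same course. Equal medians therefore do not compare overall decay between the series. In the median gene of clone 5F at day 0, 41.6% of the mock level was left at 360 min.

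At day 0, Slc38a2 was the least stable of these mRNAs. In clone 5F at day 0 it fell from 13814 to 14366 normalized counts in mock libraries to 2826 and 3079 at 120 min, 1041, 920.08 and 1035 at 240 min and 576, 603 and 534 at 360 min. That is 21.0% of the mock mean at 120 min, 7.10% at 240 min and 4.06% ± 0.24 at 360 min, and 7.30% of all genes in that series had less than 10 percent left. In the other 3 series 4.22% to 5.22% was left at 360 min. The fitted half-life was 77.1 min in clone 5F (95% interval 66.9 to 91.1) and 79.6 min (68.5 to 94.9) in clone 7E at day 0, and 79.8 min and 85.9 min at day 4, so the intervals overlap. In clone 7E at day 4 its interval reached up to 101 min and overlapped with that of Slc7a11, given below. Its slope was lower than that of all but 1.60% of genes in clone 5F at day 0. The change with 4OHT was 0.02 ± 0.07 log2 per h in clone 5F and 0.06 ± 0.06 in clone 7E, neither past the threshold.

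Slc3a2 and Slc7a3 fell at rates nearer to the median gene. At day 0, Slc3a2 had 42.6% ± 0.28 of its mock level at 360 min in clone 5F and 49.9% ± 0.17 in clone 7E, and Slc7a3 had 51.9% ± 1.19 and 59.6% ± 1.97. Their half-lives at day 0 were 285 min (222 to 399) and 386 min (324 to 478) in clone 5F. Slc7a5 was more stable, with 66.4% ± 4.41 left in clone 5F and 71.9% ± 5.57 in clone 7E and a half-life of 625 min (426 to 1172) in clone 5F. The cationic carrier Slc7a1 varied widely between libraries, from 41.7% to 98.8% of the mock mean at 240 min in clone 5F at day 0, and in clone 7E at day 0 the interval of its slope included 0. The slope of Slc1a5 at day 0 was within its error of 0 in clone 7E, and 86.3% ± 11.8 was left there at 360 min.

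Slc1a4 did not decay in a line at day 0. In clone 5F its normalized counts went from 269, 297 and 304 in mock libraries to 134 and 130.28 at 120 min, then to 369, 346 and 340.17 at 240 min and 454, 411 and 412 at 360 min. In clone 7E they went from 275, 303 and 296 to 195, 181 and 136 at 120 min, 457, 414 and 431 at 240 min and 576, 556 and 549 at 360 min. The levels at 240 and 360 min did not overlap with those of the mock libraries or of 120 min in either clone, so that 147% ± 8.48 and 192% ± 4.78 of the mock mean was present at 360 min. Only 0.203% of the 9874 genes in clone 5F and 0.0810% in clone 7E had a mean at 360 min above their mock mean at day 0. Its fitted slope of 0.21 ± 0.07 log2 per h in clone 7E was higher than that of 99.99% of genes, and it was 0.21 with each library scaled by its own spike-ins. At day 4 the course of Slc1a4 was another one. From 1019 to 1034 normalized counts in mock libraries of clone 7E it fell to 693, 639.6 and 746 at 120 min, 629, 639 and 646 at 240 min and 437, 429.75 and 416 at 360 min, 41.7% ± 1.02 of the mock mean. The level at 360 min was thus lower at day 4 than at day 0 in clone 7E, although the mock level was higher.

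Slc7a11 and Slc6a9 had fitted slopes above 0 at day 0 as well, which only for Slc6a9 in clone 5F had an interval without 0. Slc6a9 had 147.8% to 195% of its mock mean at 360 min in clone 5F and 104% to 141% in clone 7E. Slc7a11 had 9, 10 and 10 raw counts at 360 min in clone 5F after 21, 19 and 19 at 240 min, against 7, 2 and 2 in mock libraries, so its course at day 0 rests on few reads. At day 4 both genes fell. Slc7a11 went in clone 7E from 101, 102 and 67.8 normalized counts to 70.7, 83.3 and 80.3 at 120 min, 28.4, 34.9 and 33.3 at 240 min and 7.66, 8.70 and 7.06 at 360 min, which is 8.66% ± 0.92 of the mock mean, with a half-life of 106 min (84.2 to 143). In clone 5F, 18.4% ± 6.28 was left in the libraries labelled day 4, with a half-life of 157 min (114 to 251). Slc6a9 had 21.4% ± 4.63 left in clone 7E and 34.6% ± 15.1 in clone 5F at the label of day 4, with half-lives of 167 min (137 to 214) and 244 min (158 to 533).

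**Figure D3:**
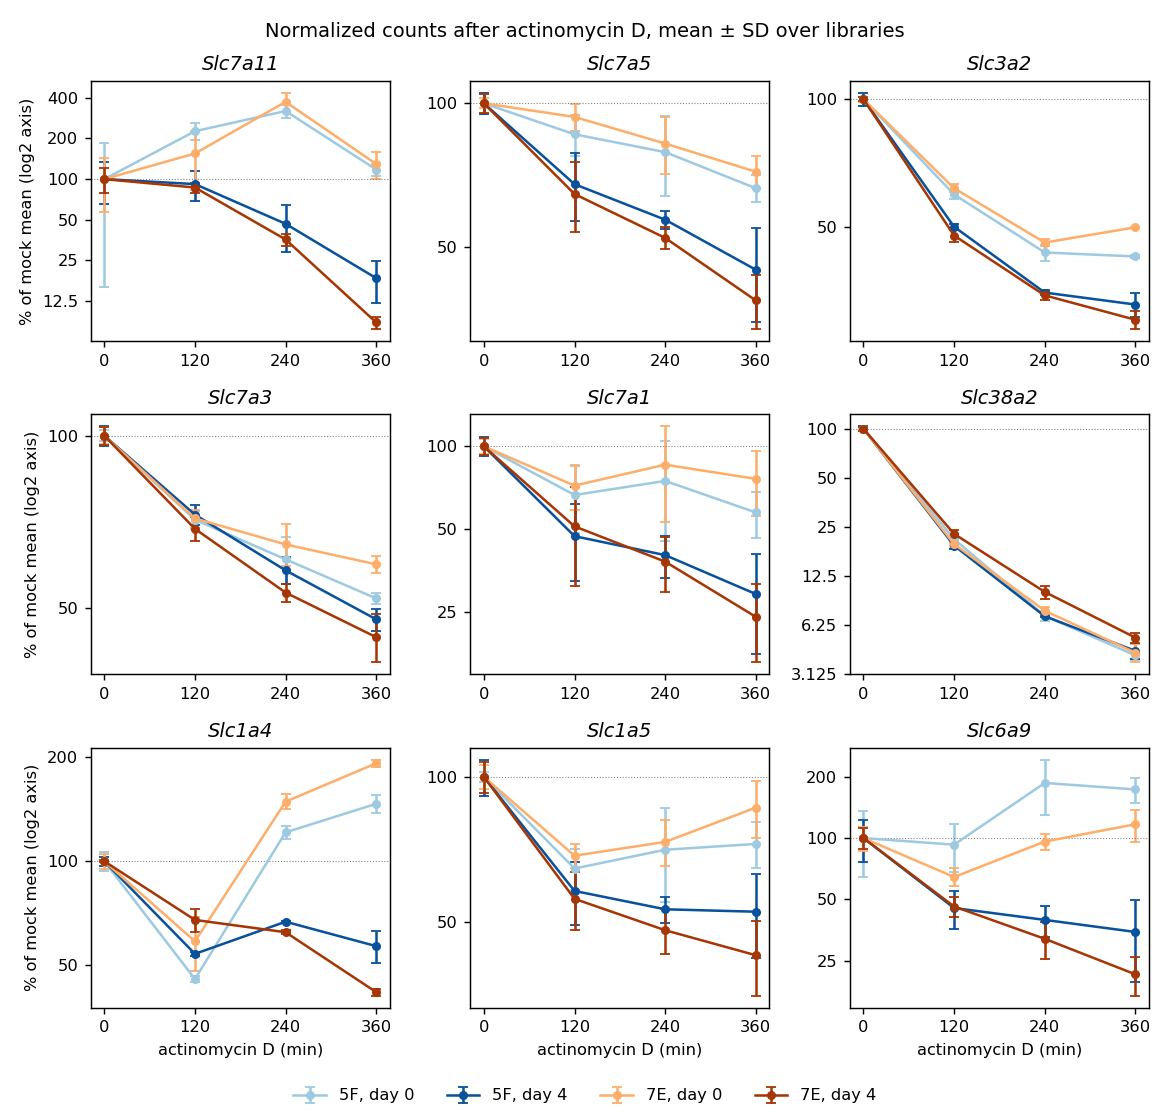
Normalized counts after actinomycin D (x axis, min) as a percentage of the mock mean of the same clone and day (y axis, log2 scale, a range of its own in each panel). Points are means and bars 1 SD over 3 libraries, 2 for clone 5F at day 0 and 120 min. Slc38a2 falls to 4.06% to 5.22% in all 4 series, whereas Slc1a4 at day 0 is above its mock level at 360 min and at day 4 below it.

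Whether decay differs between days was tested as the interaction of day with time. In clone 7E, 5 of the 9 members had a lower slope at day 4 and 0 a higher one. Of 17417 genes, 0.482% had a lower slope and 0.402% a higher one, 0.884% together. The slopes of these 5 members differed by -0.66 ± 0.13 log2 per h for Slc7a11 (adjusted p = 0.0087), -0.42 ± 0.05 for Slc6a9 (adjusted p = 4.4e-05), -0.39 ± 0.06 for Slc1a4 (adjusted p = 0.00028), -0.28 ± 0.07 for Slc7a1 (adjusted p = 0.032) and -0.14 ± 0.03 for Slc7a5 (adjusted p = 0.0026). For Slc7a11, Slc6a9 and Slc1a4 the fitted slopes at day 0 were above 0, at 0.11, 0.06 and 0.21 log2 per h. Their differences thus set a course with no fitted fall against a fall. The median over the 9 members was -0.17 and that over all genes, which the scaling holds near 0, was -0.00 log2 per h. Slc1a5 (-0.17 ± 0.04, adjusted p = 0.060), Slc3a2 (-0.11 ± 0.04, adjusted p = 0.24) and Slc7a3 (-0.07 ± 0.02, adjusted p = 0.12) did not pass. The half-life of Slc7a5 in clone 7E went from 737 min (521 to 1258) at day 0 to 271 min (222 to 347) at day 4. The line is a poor description of Slc1a4: between 0 and 120 min only, its difference was 0.10 and not past the threshold (adjusted p = 0.56), the opposite sign. Over that interval 1 member passed, Slc3a2 at -0.19. Over the whole course, 3 members passed on the spike-in scale. The whole-course count of 5 fell to 3 without replicate 1 and to 2 without replicate 2 or without replicate 3. Slc1a4 and Slc6a9 passed each time a replicate number was left out.

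In clone 5F, 1 of the 9 members had a lower slope in the libraries labelled day 4, Slc6a9 at -0.40 ± 0.08 log2 per h (adjusted p = 0.023). A higher slope was found for 0 members. The fitted slope of Slc6a9 at day 0 was 0.17 ± 0.06 log2 per h, a rise. Of 17901 genes, 0.0614% had a lower slope and 0.134% a higher one, 0.196% together. Slc7a11 had -0.43 ± 0.13 (adjusted p = 0.48) and Slc1a4 -0.24 ± 0.06 (adjusted p = 0.29). The call of Slc6a9 was lost without replicate 1 (adjusted p = 0.24), without replicate 2 (adjusted p = 0.32), without replicate 3 (adjusted p = 1), without the mock libraries, between 0 and 120 min and on the spike-in scale.

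At day 0, 0 members differed in decay between clone 7E and clone 5F, and 7 of 17766 genes did, 0.0394%. The slope was higher in clone 7E for 0.0338% and lower for 0.00563%. At an unadjusted p under 0.05 the count was 820 genes. The clones already differed in the level of Skiv2l at day 0, as given above. The member differences ranged from -0.10 ± 0.07 log2 per h for Slc6a9 to 0.07 ± 0.08 for Slc1a4. This count depended on the fit. With a replicate block within each time point, a fit chosen after seeing the data, 4 members and 1756 genes passed. The members were Slc3a2 (0.04), Slc7a3 (0.03), Slc7a1 (0.07) and Slc1a4 (0.06), all with a higher slope in clone 7E. That fit also called 5 members in clone 5F and 9 in clone 7E for the comparisons of day 4 with day 0. The change of decay with 4OHT was not shown to differ between the clones for any member or gene (0 of 9 and 0 of 18623, or 0%, in edgeR's test, with 476 genes at an unadjusted p under 0.05 and 4 genes by DESeq2). Member values ranged from -0.24 ± 0.20 for Slc7a11 to 0.03 ± 0.09 for Slc38a2. In simulated data of this last comparison, 57% of 100 genes with a difference of 0.25 log2 per h and 11% of 100 with 0.1 were found. The simulated libraries varied independently and followed a line. Same-numbered libraries of the real data deviated together and Slc1a4 did not follow a line, so these shares may not hold for the members.

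The same mock libraries enter the level and the slope, so both are given side by side and no relation between them was tested. For Slc7a11 the mock level in clone 7E was 3.98 ± 1.71 normalized counts at day 0 and 90.1 ± 19.4 at day 4, while at 360 min it was 5.15 and 7.80. For Slc6a9 the means were 61.4 and 284 in mock libraries and 71.8 and 61.0 at 360 min. For Slc7a5 they were 6374 and 10192 in mock libraries and 4583 and 3938 at 360 min. For these 3 genes the level of day 4 was above that of day 0 in mock libraries. At 360 min the means of Slc6a9 and Slc7a5 stood in the opposite order, but their libraries of day 0 and day 4 overlapped. They ranged from 64.0 to 86.6 and 46.5 to 72.2 for Slc6a9, and from 4329 to 4989 and 3401 to 4410 for Slc7a5. Without the mock libraries, Slc7a11, Slc1a4 and Slc6a9 passed in clone 7E as before and Slc1a5 passed as well (-0.18, adjusted p = 0.046), while Slc7a5 (-0.09, adjusted p = 0.35) and Slc7a1 (-0.29, adjusted p = 0.25) did not.

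Binding to decay factors was read from CRAC, in which RNA fragments crosslinked to a tagged protein are sequenced. Per the paper, each protein was tagged on both alleles in lines of its own, with no decay factor knocked out. These lines are not the clones of the half-life experiment, so the ratios do not describe binding in those clones. The authors pooled the libraries of each protein and deposited, for each mRNA, the ratio of the scaled counts of XRN1 (the exonuclease that degrades from the 5′ end), SKIV2L or MTR4 (a helicase of the nuclear exosome) to the sum over these 3, so the ratios sum to 1 and the depth and replicate spread behind them are unknown. The 7 members in the table split by leading factor, 3 with XRN1, 2 with SKIV2L and 2 with MTR4, whereas XRN1 led for 38.15% of all mRNAs, MTR4 for 35.4% and SKIV2L for 26.45%.

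XRN1 led for Slc7a1 and Slc7a5, with ratios of 0.645 and 0.640 that were above those of 96.1% and 95.9% of mRNAs, where the median mRNA had 0.337. Their ratios of MTR4 were low, 0.167 and 0.149, below those of all but 10.8% and 7.21% of mRNAs. SKIV2L led for Slc3a2 (0.528, above 90.8% of mRNAs) and Slc7a3 (0.477, above 85.8%), with a median of 0.267. The light chain Slc7a5 and its heavy chain Slc3a2 thus had different leading factors. MTR4 led for Slc1a4 (0.546, above 84.5%) and Slc1a5 (0.409, above 68.0%), and Slc38a2, the least stable mRNA at day 0, had similar ratios of XRN1 (0.393) and MTR4 (0.387) and 0.221 of SKIV2L. After the authors' division by RPKM the leading factor stayed the same for all 7, with SKIV2L scores of 0.549 for Slc3a2 and 0.477 for Slc7a3. AVEN had a ratio of 0.345 for Slc7a5, 0.313 for Slc3a2 and 0.0287 for Slc1a4, the last above only 0.649% of mRNAs. The paper describes AVEN counts relative to the same sum, of which AVEN is not a part, so its ratio can exceed 1.

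The deposited transcripts differed in layout. The coding sequence took 86.9% of the 1819 bases of the Slc3a2 transcript and 67.5% of the 2750 bases (2750.0) of Slc7a3, the pair led by SKIV2L, and 26.0% of the 7179 bases of Slc7a1 and 43.8% of the 3517 bases of Slc7a5, which were led by XRN1. The stretch after the stop codon was 106 bases in Slc3a2, 1890.0 in Slc7a5, 2733 in Slc38a2 and 5030.0 in Slc7a1. RPKM in the line tagged at SKIV2L, as the authors' value, ran from 2.41 for Slc1a4 to 102 for Slc3a2, and Slc1a4 was above only 4.63% of mRNAs there, so its ratios come from a transcript of low abundance.

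**Figure D4:**
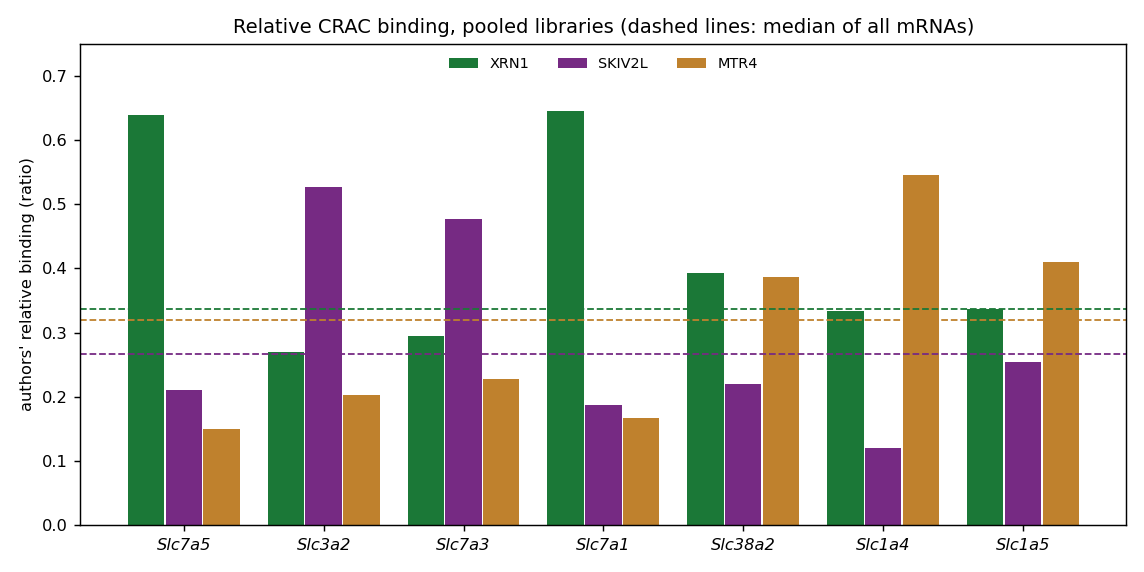
The authors' relative binding (y axis, ratio, from 0) of XRN1, SKIV2L and MTR4 to the mRNAs of 7 transporter genes, from pooled CRAC libraries with no replicate error. Dashed lines are the medians over 7240 mRNAs. XRN1 stands highest for Slc7a5 and Slc7a1, SKIV2L for Slc3a2 and Slc7a3, and MTR4 for Slc1a4 and Slc1a5.

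The genes with the most similar pattern were looked up by Pearson correlation of the log2 mean normalized count over the 16 groups of clone, day and time, among 9874 genes. These groups share the course of actinomycin D, so high values are common for genes that only fall. For Slc7a5 they were Eif4ebp1 (r = 0.99), which encodes a repressor of cap-dependent translation, Asah1 (0.98) and Add1 (0.97). For Slc38a2 they were Narfl, Pde7a and Pwp2 (each 1.00 when rounded), and for Slc7a11 Dpp4 (0.86), Pecam1 (0.83) and Ap3b2 (0.83). Slc7a11 itself was below the mean normalized count of 100 asked of the other genes, and its day 0 values rest on few reads.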

How the data were processed

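RNA-seq of clones 5F and 7E was deposited as raw counts per gene. The authors depleted rRNA, made libraries with a kit that does not mark strand, aligned reads to mm10 with the ERCC sequences added (STAR), and counted uniquely mapped reads per gene. The deposited table of CRAC binding holds, per the paper's methods, the authors' ratio of each protein's pooled and scaled counts to the sum over MTR4, SKIV2L and XRN1, their score of this ratio normalized to RPKM, and RPKM of the tagged lines as the authors' values. The authors' half-lives, made from the same counts, were not used, nor were fold changes and p-values of the authors' own comparisons. All columns of the count table were mapped to samples, with 0 left out.

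The members and lists were chosen with earlier results of these data known. Symbols and coordinates came from Gencode M21 (GRCm38), while the authors counted on an earlier release. Counts were scaled with DESeq2 size factors within each time point and 1 factor per time point from 34 ERCC sequences with a mean count over 50. This factor was 1 for mock libraries and 0.649, 0.531 and 0.438 at 120, 240 and 360 min. A normalized count is the count divided by the size factor and multiplied by that factor, where the paper writes of a division. Genes passing filterByExpr were tested with edgeR 4.0.16 (glmQLFit, glmQLFTest, R 4.3.3, limma 3.58.1) and Benjamini-Hochberg adjustment over all genes tested, with a threshold of 0.05. Levels were compared in mock libraries and decay as the interaction of day or clone with time. Comparisons share libraries. Slopes and half-lives come from a linear fit of the natural log of the normalized count plus 1. Named genes are the 9 members, Skiv2l, Aven and the 3 further transporters with the largest change past the threshold in each of 3 mock comparisons. Genes of the ATF4, NRF2 and marker lists were named after their values were seen.

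Alternatives were scaling by each library's own ERCC counts, TMM, DESeq2 1.42.0, no filter, a replicate block, leaving out each replicate number, other time points and a pseudocount of 10. The fits were tested on simulated counts of libraries that varied independently and followed a line. A difference of 1 log2 in the mock level of clone 7E was found there for 99% of 100 genes. A slope difference of 0.25 log2 per h in clone 7E was found for 69% of 100 genes. No pair of replicates agreed within sampling noise, with a chi-square per gene of at least 2.59.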

Additional observations from a re-analysis of the deposited data

Results flagged for a closer look

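The response of 6 transporter genes to 4 days of 4OHT differed between the clones, by the interaction of clone and day in edgeR's quasi-likelihood test over the 12 mock libraries. The response in clone 7E minus that in clone 5F was 0.81 log2 for Slc1a4, 0.51 for Slc7a1 and 0.43 for Slc1a5. It was 0.36 for Slc7a5, 0.33 for Slc3a2 and 0.21 for Slc38a2. The mock libraries of clone 7E at day 4 held 0.640% to 0.659% ERCC reads against 0.275% to 0.320% in the others, and the 6 differences are negative when each library is scaled by its own spike-ins. Skiv2l mRNA fell in clone 7E and not in clone 5F, where the floxed exons are only a part of the counted gene. Whether those exons were lost in clone 5F cannot be read from these counts. The part of the Skiv2l difference in these values was not tested.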

How the results depend on the processing

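With each library scaled by its own ERCC counts, the direction of change with 4OHT in clone 7E reversed for Slc7a5 (-0.42), Slc3a2 (-0.49), Slc38a2 (-0.82) and Slc1a5 (-0.45), and that between clones at day 0 for Slc3a2 (-0.020). The difference in response reversed for Slc7a5 (-0.67), Slc3a2 (-0.70), Slc7a1 (-0.53), Slc38a2 (-0.83), Slc1a4 (-0.21), Slc1a5 (-0.60) and Slc6a9 (-0.76). Over all genes this scaling moved the share of higher calls from 52.4% to 31.1% in clone 5F, from 51.6% to 1.72% in clone 7E, from 50.3% to 20.5% between clones and from 55.7% to 0.376% for the difference in response.

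The count of members passing in the decay of clone 5F, 1, became 0 with own ERCC scaling, 0 without the mock libraries, 0 between 0 and 120 min, 0 to 0 when a replicate number was left out, and 2 with TMM and no spike-in factor. In clone 7E the 5 members became 3 with own ERCC scaling, 1 between 0 and 120 min and 2 to 3 when a replicate number was left out, and Slc1a4 reversed to 0.10 between 0 and 120 min. Between clones at day 0 the mock count of 5 ranged from 3 to 5 when a replicate number was left out. It was higher with a replicate block, as given below. Over all genes, leaving out a replicate number took the calls of decay in clone 7E from 154 to between 26 and 50, and 270 were called by DESeq2. The mock counts in clones 5F and 7E, taken in either direction, stayed at 7 to 9 in all settings. They do not show a stable direction, since Slc7a5, Slc3a2, Slc38a2 and Slc1a5 reversed in clone 7E with own ERCC scaling. DESeq2 gave no adjusted p for Slc7a11 in clone 5F.

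Without the spike-in factor, slopes are relative to the other RNAs, and these reversed at day 0: Slc7a5 (0.10 in clone 5F, 0.11 in clone 7E), Slc3a2 (0.021 in 7E), Slc7a3 (0.040 in 5F, 0.074 in 7E) and Slc7a1 (0.074 in 5F). In clone 5F at the label of day 4, Slc7a5 (0.0042), Slc7a3 (0.017), Slc1a4 (0.085) and Slc1a5 (0.046) reversed. Dividing relative binding by RPKM moved 17 of 21 ratios by under 10 percent.

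Replicate numbers did not pair the mock libraries throughout, where deviations of same-numbered libraries correlated at -0.53 to 0.54 and 6 of 18 pairs were over 0.1. With a replicate block the members passing were 8, 9, 6 and 6 in the mock comparisons and 1, 4, 0 and 0 in those of decay. Over all genes this block called 2951 of 16349, 6012 of 16333, 8108 of 16299 and 1929 of 17209 in the mock comparisons. Among these, only the calls between clones at day 0 rose, from 6477. Whether the day 0 mock libraries are paired by number was not tested apart. In those of decay it called 26 of 17901, 115 of 17417, 7 of 17766 and 0 of 18623. At the same time after actinomycin D, 41 of 51 same-numbered pairs were over 0.1, with a median of 0.44, against a median of -0.35 for other numbers. For Slc7a1, Slc7a5, Slc1a5 and Slc38a2, replicate 1 was lowest at 120 min, replicate 2 at 240 min and replicate 3 at 360 min in all 4 series. A fit chosen after seeing the data had a replicate block within each time point, which also frees the course from a line. In it 5 members passed in clone 5F and 9 in clone 7E (8 with a lower slope at day 4, 1 with a higher one). Between clones at day 0 it called 4 members, with a higher slope in clone 7E, and 0 in the difference. The calls over all genes rose there from 35 to 119, 154 to 826, 7 to 1756 and 0 to 8.

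Depth limits Slc7a11 at day 0, with 2 to 7 mock counts. The decay tests found 11% to 23% of simulated differences of 0.1 log2 per h, in simulated libraries without shared deviations. Slc1a4 at day 0 is described poorly by a half-life.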
